A study of Mus musculus with 6 samples.

Results

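The 10 genes described here are the most abundant H2 genes, the histocompatibility genes of the mouse, in a table of RNA-seq read counts from activated CD4+ T cells. They were the 10 rows with the highest sum of counts over all 6 libraries among the 13 rows whose symbol begins with H2-, in a table of 4162 genes. The cells were naive CD4+ T cells taken from spleens with a magnetic isolation kit and stimulated for 48 h with plate-coated anti-CD3 plus dissolved anti-CD28. The 3 UTX TCD mice lacked UTX in T cells, and the 3 WT mice were wild type; both were labelled B6. UTX is a histone demethylase encoded by Kdm6a that removes methyl groups from lysine 27 of histone H3. The sources used here do not give the Cre driver, the deleted exons or the age of the animals. Levels are CPM, the TMM-scaled number of counts in each 1000000 counts of the listed genes, given as mean ± SD of 3 libraries. Each log2 fold change is UTX TCD over WT, with its standard error after the ± sign. A gene was called higher or lower at an edgeR quasi-likelihood adjusted p under 0.05.

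Class I heavy chains pair with β2-microglobulin and show peptides from inside the cell to CD8+ T cells and natural killer cells. Nearly all nucleated cells make them, T cells included, and interferon and NF-κB signalling are known to raise their transcription. The classical heavy chains present varied peptides. Non-classical ones of the Qa and Tla regions differ in what they bind, from the varied peptides of Qa-2 to the few of Qa-1. Class II molecules present peptides from endocytosed proteins, mostly in B cells, dendritic cells and macrophages, and H2-DM exchanges the peptides they carry.

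Promoter sequences are shown because several of the class I promoters hold motifs in common. RefSeq promoters (GRCm38.p6, 250 bases before to 50 after the annotated start) were matched for 9 of the 10 genes by symbol, all except H2-T10. A κB-like motif, GGGGATTNC searched on both strands, lay in 5 of them, H2-K1, H2-D1, H2-Q4, H2-Q6 and H2-Q7, and in 0.749% of the 32851 promoters in the table. An interferon response motif, searched as GAANNGAAA or GAAANNGAA on both strands (the forms can overlap), lay in those 5 and in H2-T22 and H2-T23, against 14.8% of all promoters. CCAAT, on both strands, lay in all 9, against 37.4% of all. A gene with more than 1 promoter was counted if any of them matched, while the shares count single promoters. Of the H2-DMa promoters, number 1 held no CCAAT and number 2 held 1. The κB-like and the interferon response motif occurred together in 0.143% of all promoters. The κB-like pattern is a narrow one, and the 5 stretches that hold it are nearly alike. These 5 matches are therefore not independent, and the shares of all promoters describe that string only. The promoters of H2-T-ps and H2-DMa held neither. The stretches from the κB-like to the interferon response motif follow, each 5′ to 3′ on the gene's own strand, with motif bases in capitals.
H2-K1: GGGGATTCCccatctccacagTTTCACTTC
H2-D1: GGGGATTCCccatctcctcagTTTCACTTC
H2-Q4: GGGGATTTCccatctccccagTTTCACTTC
H2-Q6: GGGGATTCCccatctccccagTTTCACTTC
H2-Q7: GGGGATTCCcatctccccagTTTCACTTC
The H2-K1 stretch lies at chr17:34000429-34000458 on the minus strand. On the plus strand those of H2-D1, H2-Q4, H2-Q6 and H2-Q7 lie at chr17:35262923-35262952, chr17:35379443-35379472, chr17:35424677-35424706 and chr17:35439022-35439050. They begin 111, 171, 174, 173 and 133 bases before the RefSeq start, in the order H2-K1, H2-D1, H2-Q4, H2-Q6 and H2-Q7. The interferon response motif of 2 Tla members, shown for comparison with the lines above, stood without a κB-like match in the same window. Beside that motif the H2-T22 stretch holds gaatcccc, the reverse complement of GGGGATTC, and misses the κB-like pattern by its last base only.
H2-T22: ttggcttagtTTCACTTTCgaatccccaac
H2-T23: tcctactgctTTCTCTTTCataaagacaca
These stretches lie on the minus strand at chr17:36042913-36042942 and chr17:36032805-36032834, for H2-T22 and H2-T23 in turn. A longer stretch of the H2-K1 promoter, chr17:34000348-34000497 on the minus strand, shows the spacing of the motifs, with CCAAT in capitals as its reverse complement near the 3′ end.
H2-K1: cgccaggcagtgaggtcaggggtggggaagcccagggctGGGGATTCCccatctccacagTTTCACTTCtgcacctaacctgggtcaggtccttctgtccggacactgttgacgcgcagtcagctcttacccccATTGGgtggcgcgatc
A match in these windows is a description of the letters and not a measured binding site.

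The count columns held 8363326 to 9497542 counts in UTX TCD libraries and 8823939 to 10288306 in WT libraries. The table is part of the transcriptome, with few genes near a log2 fold change of 0, so its rows appear to have been selected on the genotype difference. Of 45 H2- genes annotated in GENCODE M21, 32 were not analysed here, among them the class II chain genes. Kdm6a was lower in UTX TCD cells, with 191 ± 14.4 CPM against 283 ± 2.96 CPM in WT cells (log2 fold change -0.56 ± 0.09, edgeR adjusted p = 0.0029). Most of its counts thus remained. Loss of UTX protein cannot be read from these counts, because they sum over the whole gene and the deleted exons are not known here. UTX TCD replicate 2 was the library farthest from the rest of its genotype, and the biological coefficient of variation was 22.3% among UTX TCD and 8.01% among WT libraries. Of 14 T cell markers 4 were in the table. Cd2 was higher (1186 ± 424 CPM in UTX TCD cells and 553 ± 59.4 CPM in WT cells), and Lat (604 ± 43.2 CPM in UTX TCD cells and 819 ± 17.9 CPM in WT cells) and Thy1 (56.8 ± 18.3 CPM in UTX TCD cells and 808 ± 85.1 CPM in WT cells) were lower, at edgeR adjusted p of 0.0078, 0.0056 and 0.00019. Lck did not pass (1375 ± 36.5 CPM in UTX TCD cells and 1507 ± 24.5 CPM in WT cells, log2 fold change -0.13 ± 0.07), but was called without UTX TCD replicate 2 (-0.13) and with scaling factors shifted to the table's gap in fold changes (-0.21). Markers of other cells also differed: the CD8 T cell marker Cd8b1 was higher (42.8 ± 12.5 CPM in UTX TCD cells and 13.0 ± 1.48 CPM in WT cells), and the natural killer cell marker Nkg7, which activated T cells can also express, was lower (15.7 ± 2.19 CPM in UTX TCD cells and 63.5 ± 14.96 CPM in WT cells, edgeR adjusted p = 0.00081). The 2 natural killer cell markers in the table, Nkg7 and Eomes, of 6 listed, summed to 37.7 to 67.3 CPM in UTX TCD libraries and 78.4 to 138 CPM in WT libraries. Only Nkg7 was lower. Eomes overlapped between genotypes, with 38.7 ± 13.9 CPM in UTX TCD cells and 35.5 ± 19.3 CPM in WT cells (log2 fold change 0.13 ± 0.41, edgeR adjusted p = 0.76). The part of such cells in the H2 results was not tested. Cd4 was not analysed here. Fewer cells of a type and less RNA per cell cannot be told apart in these bulk samples.

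Of these 10 genes, 7 were higher in UTX TCD cells and none was lower. H2-K1, H2-D1, H2-Q4, H2-Q7, H2-T22, H2-T-ps and H2-DMa passed, and H2-Q6, H2-T23 and H2-T10 did not. Across all 4118 genes tested, 41.1% were called higher and 27.0% lower (68.1% in either direction), with a median log2 fold change of -0.15, while that of the 10 genes was 0.44. The largest difference was that of H2-Q7, at 2.27-fold, and the smallest called one that of H2-Q4, at 1.21-fold. The same 7 genes had no overlap between genotypes, a property that 41.8% of all tested genes showed in the higher direction and 44.0% in the lower. All 10 passed the filter on low counts. Because presence in the table may itself have followed the genotype difference, these counts are not independent evidence that H2 genes as a family were higher.

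**Figure D1:**
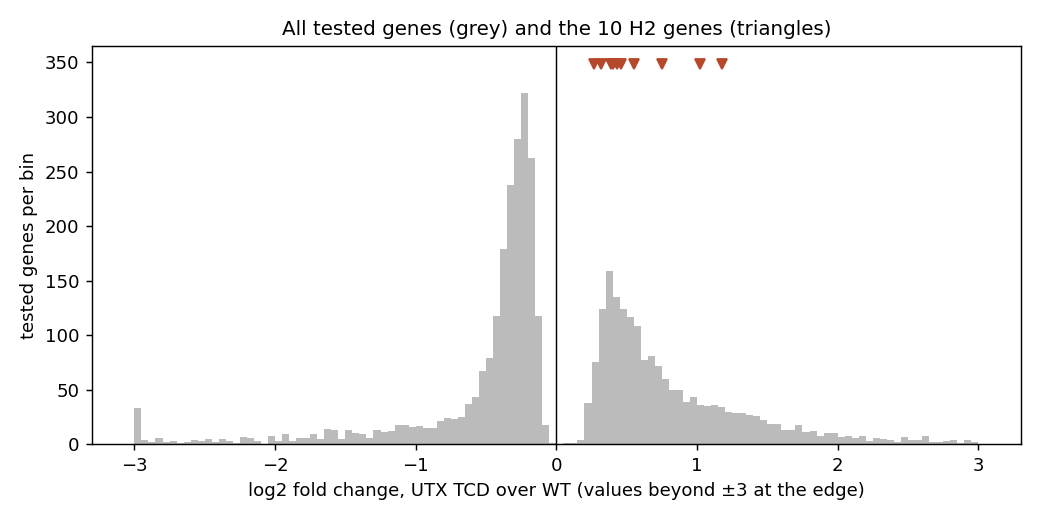
Number of tested genes (y axis) by log2 fold change, UTX TCD over WT (x axis, bins of equal width), with a triangle for each of the 10 H2 genes. The 10 genes lie between 0.27 and 1.18, to the right of the gap near 0.

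The 10 genes shared 1 pattern over libraries. For every one of them the highest value came from UTX TCD replicate 2, a library that was highest for 32.8% of all tested genes. The lowest library was a WT library for all 10, and WT replicate 3 was the highest of the WT libraries for all 10. The share of all tested genes with either of these traits is not given here, so neither can be called particular to H2 genes. Their summed level was 6327, 8749 and 6719 CPM in UTX TCD replicates 1 to 3, against 5422, 5087 and 6104 CPM in WT replicates 1 to 3. These sums did not overlap. H2-K1 and H2-D1 together supplied 79.4% to 83.1% of the counts of the 10 genes in a library.

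**Figure D2:**
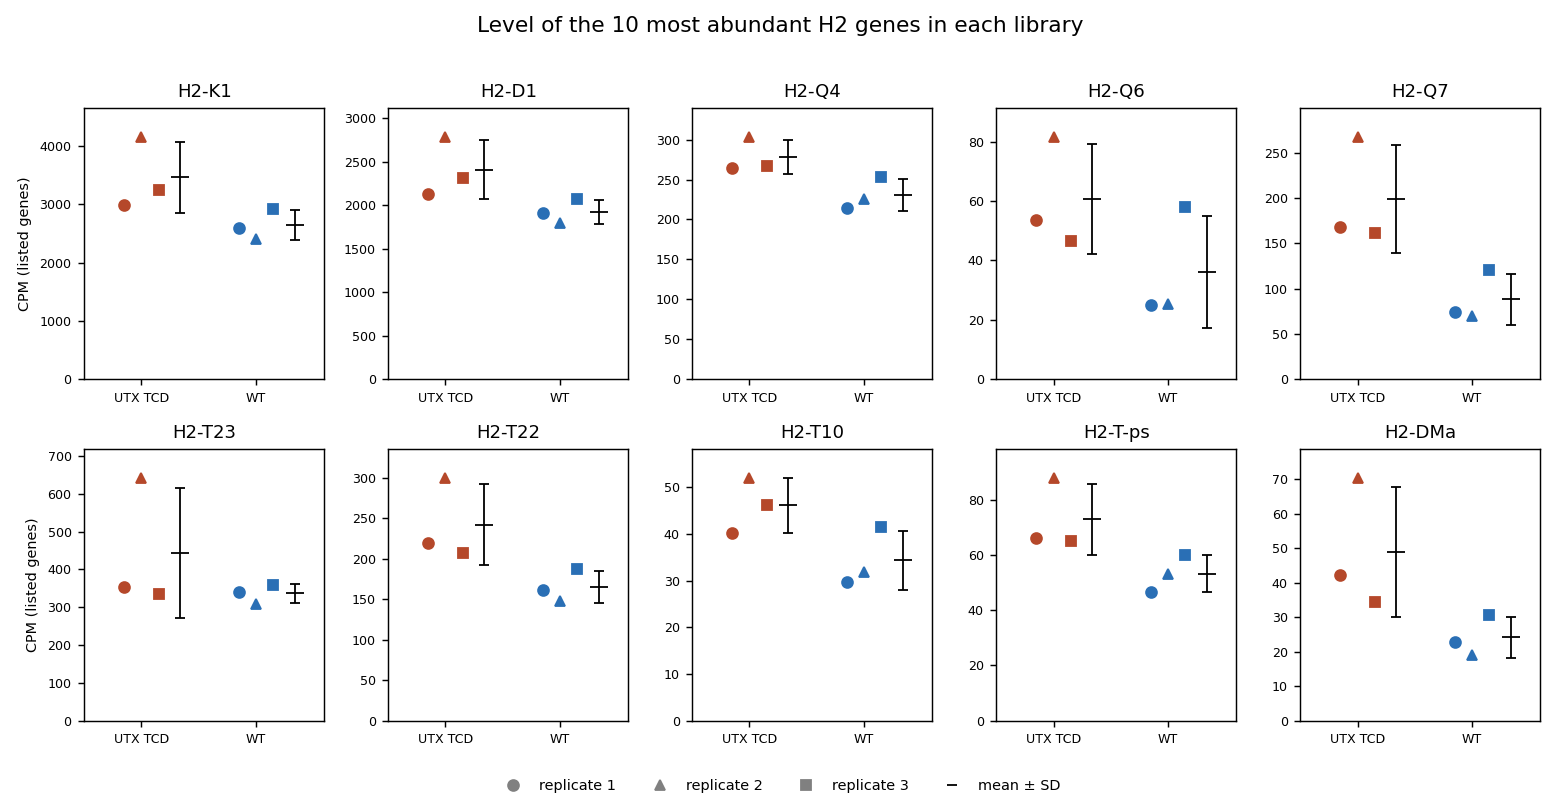
CPM (y axis, from 0) of each H2 gene in each library, with UTX TCD left of WT, a marker shape per replicate number and the mean ± SD of 3 libraries in black. The triangle of UTX TCD replicate 2 is the highest point in every panel, and the genotypes overlap for H2-Q6, H2-T23 and H2-T10.

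Both classical class I genes were modestly higher in UTX TCD cells. H2-K1 encodes the heavy chain of the K molecule (ENSMUSG00000061232, chromosome 17 from 33996017 to 34000347, GRCm38). It had 2992, 4162 and 3244 CPM in UTX TCD replicates 1, 2 and 3, against 2603, 2414 and 2921 CPM in WT replicates 1, 2 and 3. Every UTX TCD library lay above every WT library, the closest pair being UTX TCD replicate 1 and WT replicate 3, which were 71.2 CPM apart. The means were 3466 ± 616 CPM in UTX TCD cells and 2646 ± 256 CPM in WT cells, and the log2 fold change was 0.39 ± 0.14 (edgeR adjusted p = 0.039).

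H2-D1, the heavy chain of the D molecule, lies on chromosome 17 from 35262730 to 35267499 (ENSMUSG00000073411). It had 2126, 2784 and 2313 CPM in UTX TCD replicates 1, 2 and 3, against 1904, 1792 and 2072 CPM in WT replicates 1, 2 and 3. The genotypes did not overlap, and the order of the libraries was that of H2-K1. The means were 2407 ± 339 CPM in UTX TCD cells and 1922 ± 141 CPM in WT cells (log2 fold change 0.32 ± 0.12, edgeR adjusted p = 0.041). Without UTX TCD replicate 2 the log2 fold changes of H2-K1 and H2-D1 were 0.23 and 0.20 and still passed. Both calls were lost without WT replicate 1 (0.37 and 0.31), WT replicate 2 (0.32 and 0.27), WT replicate 3 (0.46 and 0.38) or UTX TCD replicate 3 (0.43 and 0.35), and with scaling factors shifted so that the table's gap in fold changes lay at 0, called gap-centred scaling here (0.31 and 0.25).

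Of the Qa region genes, H2-Q7 and H2-Q4 were higher in UTX TCD cells, with the largest and the smallest fitted fold change of the 10 genes, and H2-Q6 did not pass. Differences between these genes in their fold changes were not tested, and those of H2-Q6 and H2-Q7 lay within their standard errors of each other. H2-Q7 encodes Qa-2, a non-classical class I molecule anchored to the membrane by a lipid, and lies on chromosome 17 from 35439155 to 35443773 (ENSMUSG00000060550). Its level was 168, 268 and 162 CPM in UTX TCD replicates 1, 2 and 3, against 73.9, 69.4 and 120 CPM in WT replicates 1, 2 and 3. WT replicate 3 lay between the other WT libraries and the UTX TCD libraries, and the genotypes did not overlap. The means were 199 ± 59.4 CPM in UTX TCD cells and 87.9 ± 28.3 CPM in WT cells (log2 fold change 1.18 ± 0.27, edgeR adjusted p = 0.0099). H2-Q7 passed whichever library was left out, at 0.90 to 1.47.

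H2-Q4, also called Qb-1, is a class I heavy chain gene at 35379617 to 35385290 on chromosome 17 (ENSMUSG00000035929). Its level was 265, 303 and 267 CPM in UTX TCD replicates 1, 2 and 3, against 215, 225 and 253 CPM in WT replicates 1, 2 and 3. The genotypes did not overlap, with 11.8 CPM between the closest libraries. The means were 278 ± 21.8 CPM in UTX TCD cells and 231 ± 19.8 CPM in WT cells (log2 fold change 0.27 ± 0.10, edgeR adjusted p = 0.043). The call was lost without WT replicate 1 (0.22), 2 (0.25) or 3 (0.34), without UTX TCD replicate 2 (0.20) or 3 (0.30), and under gap-centred scaling (0.19). Gm11131 is annotated on the opposite strand of H2-Q4 and was itself higher (log2 fold change 0.95 ± 0.24, edgeR adjusted p = 0.015), a call lost without WT replicate 2 (0.96) or 3 (0.87). The sources used here do not give the strand setting of the counting.

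H2-Q6 lies between H2-Q4 and H2-Q7, from 35424850 to 35430055 on chromosome 17 (ENSMUSG00000073409), and encodes another Qa class I chain. It had 53.7, 81.6 and 46.5 CPM in UTX TCD replicates 1, 2 and 3, against 24.9, 25.4 and 57.9 CPM in WT replicates 1, 2 and 3. WT replicate 3 exceeded 2 of the UTX TCD libraries, so that the genotypes overlapped. The log2 fold change was 0.75 ± 0.36 (edgeR adjusted p = 0.088). With WT replicate 3 left out it was 1.27 and passed, and with UTX TCD replicate 2 left out it was 0.47. DESeq2 also called it (0.79).

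These genes resemble one another closely enough to share reads. Of all 50-base stretches in the GENCODE M21 transcripts of H2-Q6, 32.0% also occur in transcripts of another gene, for the most part H2-Q7 and H2-Q4. The shares were 26.4% for H2-Q7 and 21.8% for H2-Q4, against 9.63% for H2-K1, 12.8% for H2-D1 and 0% for H2-DMa. The sources used here do not say how reads that fit several genes were counted, so the split of counts among the Qa genes is uncertain.

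Of the 4 Tla region rows, H2-T22 and H2-T-ps were higher in UTX TCD cells. H2-T22 encodes a class I-like molecule known as a ligand of a subset of γδ T cells (ENSMUSG00000056116, chromosome 17 from 36037128 to 36042747). It had 220, 300 and 207 CPM in UTX TCD replicates 1, 2 and 3, against 161, 148 and 187 CPM in WT replicates 1, 2 and 3. All UTX TCD libraries lay above all WT libraries. The means were 242 ± 50.2 CPM in UTX TCD cells and 165 ± 19.9 CPM in WT cells (log2 fold change 0.55 ± 0.16, edgeR adjusted p = 0.021). The call was lost without WT replicate 1 (0.53) or WT replicate 2 (0.47), and the value was 0.36, still called, without UTX TCD replicate 2.

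H2-T23 encodes Qa-1, which shows a leader peptide of other class I chains to the CD94-NKG2 receptors of natural killer cells and CD8+ T cells. It lies on chromosome 17 from 36029773 to 36032855 (ENSMUSG00000067212). It had 354, 641 and 334 CPM in UTX TCD replicates 1, 2 and 3, against 341, 309 and 360 CPM in WT replicates 1, 2 and 3. UTX TCD replicate 2 alone was high, at 1.86 times the mean of the other UTX TCD libraries, and those lay within the WT range. The means were 443 ± 172 CPM in UTX TCD cells and 337 ± 26.1 CPM in WT cells, and the log2 fold change of 0.40 ± 0.24 did not pass (edgeR adjusted p = 0.15). Without UTX TCD replicate 2 it was 0.03.

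H2-T10, a close relative of H2-T22, is annotated as a polymorphic pseudogene (ENSMUSG00000079491, chromosome 17 from 36115876 to 36121465). It had 40.2, 51.9 and 46.1 CPM in UTX TCD replicates 1, 2 and 3, against 29.6, 31.9 and 41.5 CPM in WT replicates 1, 2 and 3. The genotypes overlapped through WT replicate 3, which was 1.30 CPM above UTX TCD replicate 1. The log2 fold change was 0.43 ± 0.17 (edgeR adjusted p = 0.057), and it passed without WT replicate 3 (0.58) or UTX TCD replicate 1 (0.52), and with DESeq2 (0.47), limma-voom (0.45) or upper-quartile scaling (0.51).

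H2-T-ps is an unprocessed pseudogene in GENCODE and a protein-coding gene in RefSeq (ENSMUSG00000073405, chromosome 17 from 36109234 to 36111658). It had 66.2, 87.8 and 65.0 CPM in UTX TCD replicates 1, 2 and 3, against 46.6, 53.1 and 60.05 CPM in WT replicates 1, 2 and 3. The genotypes did not overlap, and the log2 fold change was 0.46 ± 0.16 (edgeR adjusted p = 0.036). The call was lost without WT replicate 1 (0.36), WT replicate 2 (0.45) or UTX TCD replicate 2 (0.29), and under gap-centred scaling (0.38). H2-T22 shares 31.3% of its 50-base stretches with H2-T10, and H2-T-ps shares 18.0% of its own with H2-T23, so the counts of these pairs cannot be told apart with certainty. Gm7030, a protein-coding gene not analysed here, is annotated over H2-T10 and H2-T-ps on the same strand. How reads in such overlaps were counted is not stated.

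H2-DMa was the only class II pathway gene among the 10, and it was higher in UTX TCD cells. It encodes the alpha chain of H2-DM, which removes the invariant chain fragment from class II molecules (ENSMUSG00000037649, chromosome 17 from 34119541 to 34139101). It had 42.3, 70.3 and 34.5 CPM in UTX TCD replicates 1, 2 and 3, against 22.7, 19.1 and 30.8 CPM in WT replicates 1, 2 and 3. The genotypes did not overlap, though UTX TCD replicate 3 and WT replicate 3 were 3.72 CPM apart. The means were 49.0 ± 18.8 CPM in UTX TCD cells and 24.2 ± 5.98 CPM in WT cells (log2 fold change 1.02 ± 0.30, edgeR adjusted p = 0.021). The call was lost without WT replicate 1 (0.97) or WT replicate 2 (0.87), and the value was 0.66, still called, without UTX TCD replicate 2. CR974462.3, not analysed here, is annotated over H2-DMa on the same strand. Brd2, which overlaps H2-DMa on the opposite strand, was more abundant. It had 1208, 1074 and 1154 CPM in UTX TCD replicates 1 to 3 and 1282, 1284 and 1264 CPM in WT replicates 1 to 3. Brd2 did not pass (log2 fold change -0.16 ± 0.08, edgeR adjusted p = 0.096), but was called lower under gap-centred scaling (-0.23).

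Markers of cells that carry class II were examined beside H2-DMa. Of 16 B cell markers 4 were in the table, and their summed level was 498 to 802 CPM in UTX TCD libraries and 473 to 576 CPM in WT libraries, nearly all of it Ighm. Ighm was at 0.38 ± 0.17 (edgeR adjusted p = 0.074) and Ighd at 0.66 ± 0.27 (0.055), while Fcer2a (-0.89 ± 0.29, edgeR adjusted p = 0.029) and Igkc (-0.84 ± 0.30, 0.040) were lower. Both of these calls were lost without any 1 WT library, and that of Igkc also without UTX TCD replicate 1 or 2 and under RLE or upper-quartile scaling. The 2 macrophage or monocyte markers in the table, Cd86 and Fgr, summed to 0.846 to 1.93 CPM in UTX TCD libraries and 22.6 to 26.4 CPM in WT libraries. The only dendritic cell marker in the table, Ccr7, which T cells also express, ran from 984 to 2281 CPM in UTX TCD libraries and from 714 to 931 CPM in WT libraries. Ms4a1, Cd79a, Itgax and Csf1r were not analysed here, and none of the markers in the table was at 0. The part of such cells in the H2-DMa result was not tested.

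**Figure D3:**
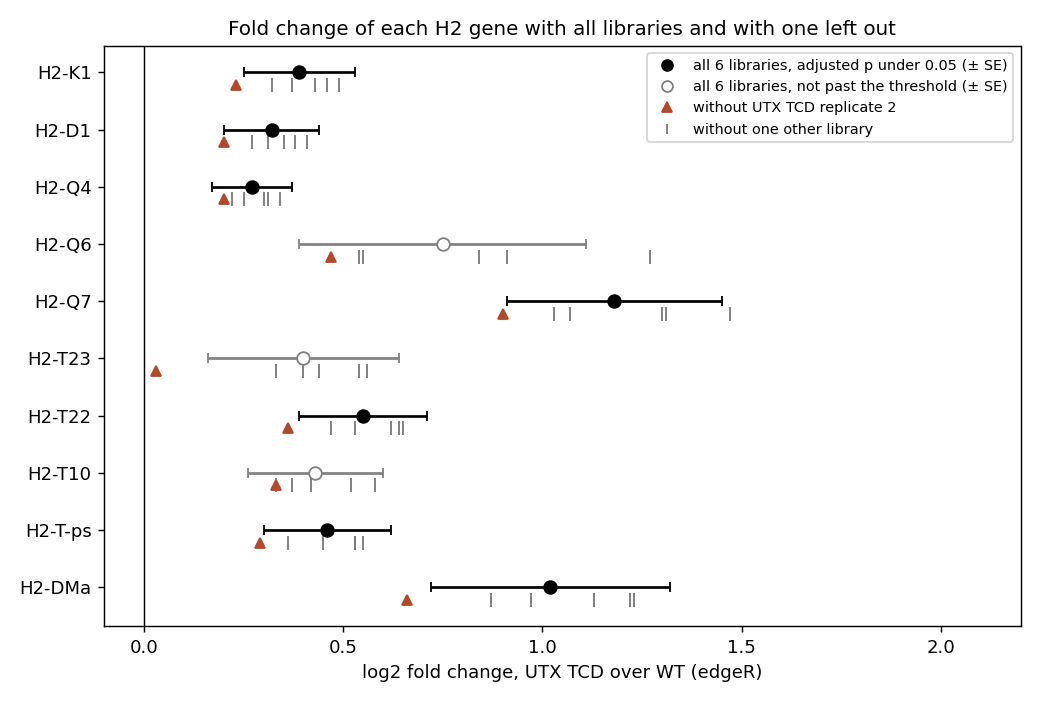
Log2 fold change of each H2 gene, UTX TCD over WT (x axis, edgeR), with all 6 libraries (circles, ± SE) and with 1 library left out (marks below each circle). Leaving out UTX TCD replicate 2 (triangles) gives the lowest value, tied in the case of H2-T10, for each gene, down to 0.03 for H2-T23.

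Ranked by counts, H2-DMa with 2023 counts was the last of the 10, and H2-K2 with 954 counts was the first row outside. The 3 rows below the 10 were H2-K2, a pseudogene, H2-Q5, a polymorphic pseudogene of the Qa region, and H2-Oa, a chain of H2-DO, which inhibits H2-DM. They averaged 22.6 ± 10.5, 18.2 ± 8.26 and 8.53 ± 4.07 CPM in UTX TCD cells, against 11.7 ± 2.51, 8.31 ± 3.16 and 3.87 ± 1.14 CPM in WT cells. All 3 were called higher, at 0.95 ± 0.34, 1.13 ± 0.39 and 1.14 ± 0.40 (edgeR adjusted p = 0.039, 0.034 and 0.038). All 3 calls were lost without WT replicate 1 (0.86, 1.01 and 1.10), WT replicate 2 (0.85, 0.94 and 1.38) or UTX TCD replicate 2 (0.49, 0.68 and 0.68). Those of H2-K2 and H2-Oa were also lost without WT replicate 3 (1.13 and 0.96), and that of H2-Oa without UTX TCD replicate 3 (1.25).

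Levels were compared between genes as CPM per kilobase of annotated exon. In UTX TCD cells H2-K1 came first with 1180 ± 210 CPM per kilobase and H2-D1 second with 934 ± 132, and the intervals of mean ± SD overlap. H2-T23 followed with 153 ± 59.4 and H2-Q4 with 107 ± 8.39, which also overlap. H2-T22 with 70.9 ± 14.7, H2-T-ps with 68.4 ± 12.1 and H2-Q7 with 46.7 ± 13.9 came next, then H2-Q6 with 29.1 ± 8.89, H2-DMa with 14.2 ± 5.46 and H2-T10 with 13.5 ± 1.70. In WT cells the same scale gave 901 ± 87.1 for H2-K1, 745 ± 54.7 for H2-D1, 117 ± 9.04 for H2-T23, 89.0 ± 7.63 for H2-Q4, 49.9 ± 6.32 for H2-T-ps and 48.5 ± 5.82 for H2-T22. The lowest WT values were 20.6 ± 6.62 for H2-Q7, 17.3 ± 9.08 for H2-Q6, 10.1 ± 1.85 for H2-T10 and 7.01 ± 1.73 for H2-DMa. By that measure the neighbours H2-T22, H2-T-ps, H2-Q7 and H2-Q6 each overlap the next in UTX TCD cells, as do H2-DMa and H2-T10. In WT cells H2-T-ps overlaps H2-T22, and H2-Q7, H2-Q6, H2-T10 and H2-DMa each overlap the next. These SDs include variation between libraries that the genes shared. Overlap of the intervals therefore does not show whether an order held within each library.

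Ratios within a library do not depend on how libraries were scaled to each other. Each of the 9 other genes was set against H2-K1, as counts per 100 H2-K1 counts. H2-Q7 stood at 5.62, 6.43 and 4.98 in UTX TCD replicates 1, 2 and 3, against 2.84, 2.88 and 4.12 in WT replicates 1, 2 and 3. The mean ratio was 1.73 times that of WT cells and the genotypes did not overlap. H2-DMa stood at 1.41, 1.69 and 1.06 in UTX TCD replicates 1, 2 and 3, against 0.871, 0.791 and 1.05 in WT replicates 1, 2 and 3, and its mean ratio was 1.53 times that of WT cells, again without overlap. Each of these 2 ratios reached p = 0.1 in a two-sided exact permutation test of 3 against 3 libraries, the smallest p the design allows, and 0.45 after Benjamini-Hochberg adjustment over the 9 ratios. The other 7 ratios overlapped between genotypes.

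H2-D1 kept a narrow ratio to H2-K1, at 71.0, 66.9 and 71.3 in UTX TCD libraries and 73.1, 74.2 and 70.9 in WT libraries (exact permutation p = 0.3). H2-T22 was at 6.97 ± 0.52 in UTX TCD cells and 6.24 ± 0.14 in WT cells per 100 H2-K1 counts (exact permutation p = 0.2, n = 3 each). The H2-T23 ratio was highest in UTX TCD replicate 2, at 11.8, 15.4 and 10.3 in UTX TCD replicates 1 to 3, against 13.1, 12.8 and 12.3 in WT replicates 1 to 3 (exact permutation p = 0.9). The ratio of H2-Q6 was 1.80, 1.96 and 1.43 in UTX TCD libraries and 0.955, 1.05 and 1.98 in WT libraries, where WT replicate 3 was above every UTX TCD library. Without WT replicate 3 the number of ratios that did not overlap was 5 in place of 2. It was 3 without any 1 of the UTX TCD libraries, and 2 without WT replicate 1 or 2. Genotypes separate more easily when fewer libraries are compared, and the share of other gene pairs without overlap is not given here.

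**Figure D4:**
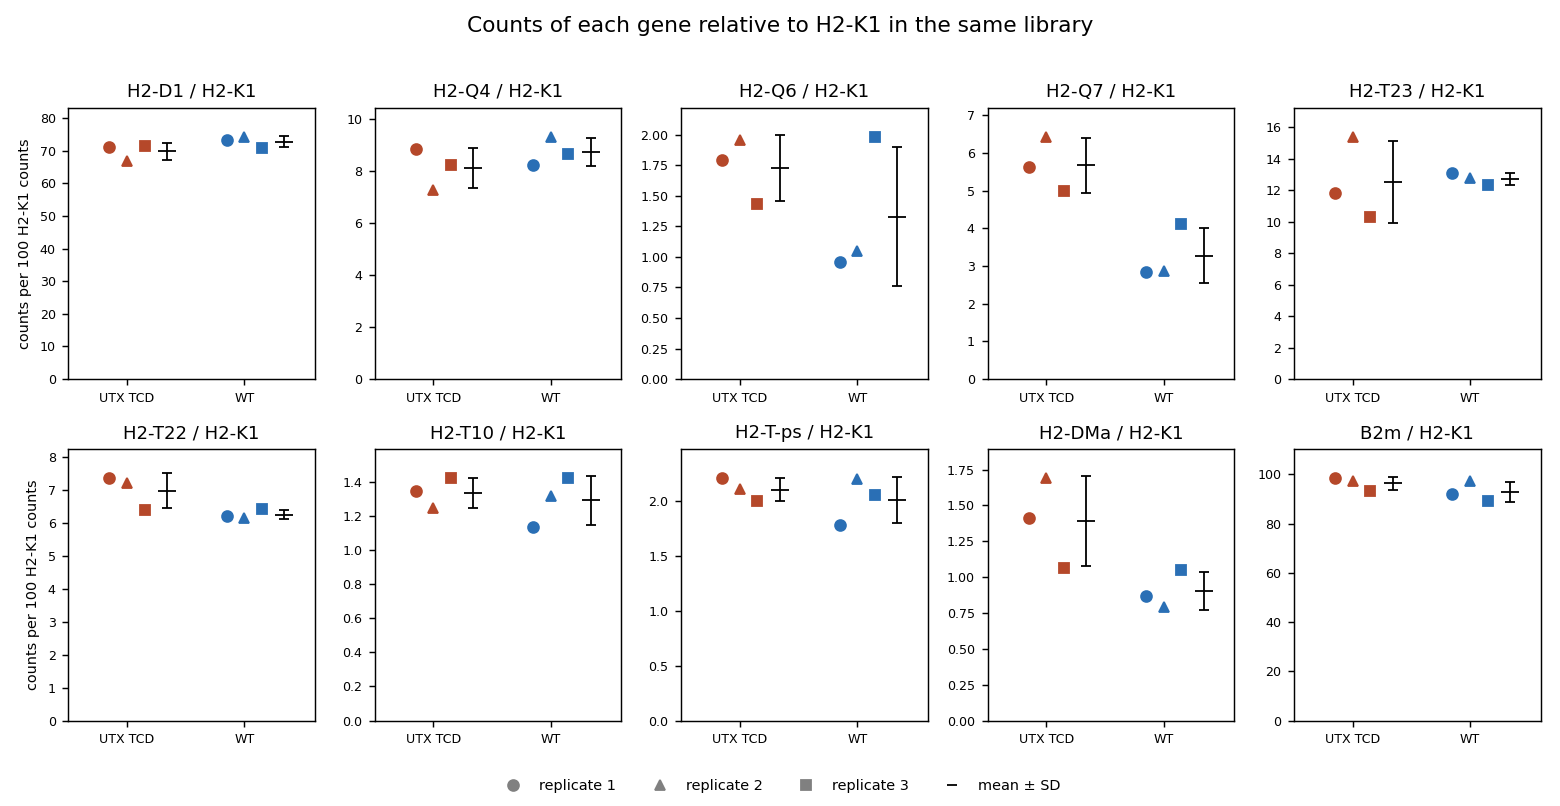
Counts of 9 H2 genes and of B2m per 100 H2-K1 counts in the same library (y axis, from 0), with UTX TCD left of WT, a marker shape per replicate number and the mean ± SD of 3 libraries in black. Only the H2-Q7 and H2-DMa panels show 3 UTX TCD points above all WT points.

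Of the class I assembly and loading list 6 of 23 genes were in the table, and 1 was higher, 2 lower and 3 not called. B2m, the β2-microglobulin gene, had 2944, 4050 and 3025 CPM in UTX TCD replicates 1, 2 and 3, against 2396, 2348 and 2610 CPM in WT replicates 1, 2 and 3, and rose by 0.45 ± 0.13 on the log2 scale (edgeR adjusted p = 0.023). Its level ordered the 6 libraries as that of H2-K1 did. Per 100 H2-K1 counts it was at 96.3 ± 2.71 in UTX TCD cells and 92.9 ± 4.0 in WT cells, with overlap (exact permutation p = 0.2, n = 3 each). Its call was lost without WT replicate 1 (0.43) or 2 (0.41), and it was 0.28, still called, without UTX TCD replicate 2. Tapbp, which encodes the tapasin that ties class I to the peptide transporter, averaged 984 ± 307 CPM in UTX TCD cells and 712 ± 45.5 CPM in WT cells and did not pass (0.47 ± 0.20, edgeR adjusted p = 0.063), though it passed with DESeq2 (0.51) and without UTX TCD replicate 1 (0.63). It was 0.18 without UTX TCD replicate 2. Psmb9, an immunoproteasome subunit gene, was at 0.28 ± 0.25 (0.31), at 0.54 and past the threshold without UTX TCD replicate 1, and at 0.01 without UTX TCD replicate 3.

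Tapbpl and Calr, whose products act on class I chains in the endoplasmic reticulum, were lower in UTX TCD cells. Tapbpl, which encodes the tapasin-like peptide editor TAPBPR, fell to 244 ± 16.4 CPM in UTX TCD cells, against 303 ± 7.26 CPM in WT cells (-0.31 ± 0.08, edgeR adjusted p = 0.017), and its call was lost without any 1 WT library (-0.30 to -0.34). Calr, the calreticulin gene, fell to 2497 ± 314 CPM in UTX TCD cells, against 3063 ± 199 CPM in WT cells (-0.29 ± 0.11, edgeR adjusted p = 0.047). Its call was lost without WT replicate 1 (-0.25), 2 (-0.29) or 3 (-0.35) or UTX TCD replicate 3 (-0.32), and under RLE (-0.25) or upper-quartile scaling (-0.22). Hspa5, the BiP gene, was at -0.18 ± 0.08 (edgeR adjusted p = 0.065), and was called without UTX TCD replicate 1 (-0.21) or 2 (-0.17) and under gap-centred scaling (-0.26). Tap1, Tap2 and Psmb8 were not analysed here.

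Of 31 genes in the list of known MHC regulators 16 were in the table, and 10 were higher, 3 lower (Irf8, Nfkb1 and Kdm6a itself) and 3 not called, with a median log2 fold change of 0.45. Those 13 calls stand beside 68.1% of all tested genes called in either direction. Nlrc5, the class I transactivator, had 762, 913 and 775 CPM in UTX TCD replicates 1, 2 and 3, against 556, 517 and 589 CPM in WT replicates 1, 2 and 3. Its log2 fold change was 0.56 ± 0.10 (edgeR adjusted p = 0.0049), with no overlap, and it passed whichever library was left out, at 0.47 to 0.61. Irf2, an interferon regulatory factor, rose by 0.75 ± 0.11 (edgeR adjusted p = 0.0027) and passed whichever library was left out, at 0.64 to 0.84.

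Rfx5, a subunit of the factor that binds the X box of class II and class I promoters, was at 0.38 ± 0.14 (edgeR adjusted p = 0.039), but lost its call without any 1 WT library (0.33 to 0.43), without UTX TCD replicate 2 (0.26) or 3 (0.40), and under gap-centred scaling (0.30). Irf7, an interferon-induced factor, followed UTX TCD replicate 2 closely, with 18.4, 179 and 20.5 CPM in UTX TCD replicates 1, 2 and 3, against 7.33, 5.86 and 7.95 CPM in WT replicates 1, 2 and 3. Its log2 fold change was 3.36 ± 0.91 (edgeR adjusted p = 0.017), and 1.46, still called, without UTX TCD replicate 2. It lost its call without WT replicate 1 (3.39) or 2 (3.24) and with limma-voom (2.57), and DESeq2 gave it no adjusted p. Irf8, an interferon regulatory factor of lymphoid and myeloid cells, fell to 718 ± 233 CPM in UTX TCD cells, against 1738 ± 203 CPM in WT cells (-1.28 ± 0.22, edgeR adjusted p = 0.0043). It passed whichever library was left out, at -1.55 to -1.09. Nfkb1, which encodes an NF-κB subunit, was at -0.27 ± 0.08 (edgeR adjusted p = 0.024), and lost its call without any 1 WT library (-0.30 to -0.24), without UTX TCD replicate 3 (-0.23) and under upper-quartile scaling (-0.19). The list's higher members numbered 4, 3 and 6 without WT replicates 1, 2 and 3. Ciita, the class II transactivator, and Irf1 were not analysed here.

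**Figure D5:**
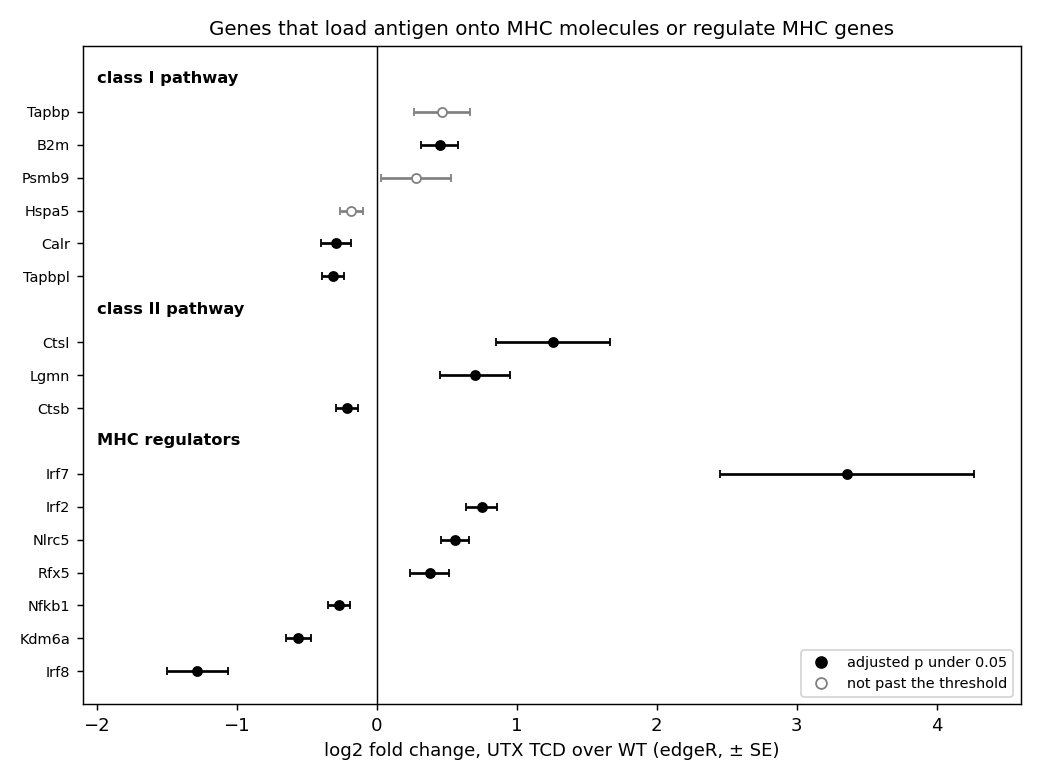
Log2 fold change, UTX TCD over WT (x axis, edgeR, ± SE), of the genes named in the text from the lists of class I loading, class II processing and MHC regulation, with filled circles for an adjusted p under 0.05. B2m, Ctsl, Lgmn, Irf7, Irf2, Nlrc5 and Rfx5 lie to the right of 0 and are filled, and Calr, Tapbpl, Ctsb, Nfkb1, Kdm6a and Irf8 lie to the left and are filled.

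Of the class II processing list 3 of 16 genes were in the table. The protease genes Ctsl and Lgmn were higher, with 18.5 ± 11.6 and 17.8 ± 4.68 CPM in UTX TCD cells, against 7.70 ± 0.28 and 11 ± 1.49 CPM in WT cells, and Ctsb was lower, with 417 ± 18.3 CPM in UTX TCD cells against 482 ± 17.2 CPM in WT cells. Their log2 fold changes were 1.26 ± 0.41, 0.70 ± 0.25 and -0.21 ± 0.08 (edgeR adjusted p = 0.030, 0.038 and 0.044). Each of these 3 calls was lost without any 1 WT library, at 1.24 to 1.29 for Ctsl, 0.59 to 0.78 for Lgmn and -0.24 to -0.19 for Ctsb. Without UTX TCD replicate 2 Ctsl was at 0.61 and Lgmn, no longer called, at 0.46. Without UTX TCD replicate 3 Lgmn (0.75) and Ctsb (-0.24) were not called.

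Class I-like genes outside the H2 region were represented by 2 of 16 listed genes, both higher. Cd1d1, which presents lipids to natural killer T cells, had 10.6 ± 2.90 CPM in UTX TCD cells and 3.74 ± 0.99 CPM in WT cells (log2 fold change 1.5 ± 0.32, edgeR adjusted p = 0.0082), and Ulbp1, a ligand of the NKG2D receptor, had 175 ± 20.1 CPM in UTX TCD cells and 103 ± 11.2 CPM in WT cells (0.77 ± 0.12, 0.0033). Of receptors for class I and II, 4 of 18 were in the table. Cd8b1, Klrd1 and Lag3 were higher, at 1.72 ± 0.24, 1.40 ± 0.36 and 0.33 ± 0.10, and Cd160 lower, at -1.04 ± 0.31 (edgeR adjusted p = 0.0023, 0.015, 0.028 and 0.022). The calls of Klrd1 and Lag3 were lost without WT replicate 1 (1.24 and 0.30) or 2 (1.34 and 0.29), that of Lag3 under gap-centred scaling (0.25), and that of Cd160 without any 1 WT library (-1.08 to -0.98). Cd8b1, a chain of the CD8 coreceptor, had 31.5, 56.2 and 40.8 CPM in UTX TCD replicates 1, 2 and 3, against 11.6, 14.5 and 12.8 CPM in WT replicates 1, 2 and 3.

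Outside the H2 rows, the genes whose log2 CPM followed H2-K1 most closely over the 6 libraries were Prr33, Sgsm2 and Fyb, with Pearson's r of 0.995, 0.993 and 0.992. Gzmb and Sla2 were among those closest to the mean standardised level of the 10 H2 genes, with r of 0.995 and 0.994. These correlations describe 6 points that share genotype and the high UTX TCD replicate 2, and 199 genes reached an r above 0.95 with H2-K1. Gzmb, the granzyme B gene, had 159, 302 and 146 CPM in UTX TCD replicates 1, 2 and 3, against 72.4, 75.8 and 138 CPM in WT replicates 1, 2 and 3, so that WT replicate 3 was its highest WT library as well. Fyb, which encodes an adaptor of T cell receptor signalling, had 442, 862 and 479 CPM in UTX TCD replicates 1, 2 and 3, against 344, 300 and 400 CPM in WT replicates 1, 2 and 3.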

How the data were processed

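Per the labels' protocols, RNA was extracted with a microprep kit after 48 h of stimulation. The authors deposited 1 table of raw counts per gene, with no normalization. FastQC, HISAT2 and HTSeq with build mm10 were used, per the submitters' processing notes, while the sources used here give no versions, annotation, strand setting or treatment of multiply mapped reads. Columns were tied to samples by genotype and number in the titles. Column totals are not library depth, because the table holds 4162 genes, a part of the transcriptome, and CPM values run higher than over all genes.

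From the counts, edgeR 4.0.16 in R 4.3.3 was fitted with genotype as the only term over all 6 libraries, TMM scaling, filterByExpr at its defaults (a count of 10 and a total of 15, leaving out 44 genes) and Benjamini-Hochberg adjustment over 4118 genes. The adjustment counts fewer tests than a full table would, so adjusted p-values are too small. The fit was tested on simulated data. Alternatives were DESeq2 1.42.0, limma-voom (limma 3.58.1), other scalings, no filter, a replicate block, each library left out, and all 22028 annotated protein-coding genes of GENCODE M21 counted as tests. Exon lengths and 50-base stretches came from GENCODE M21. Replicate pairs differed by more than sampling noise (chi-square per degree of freedom 7.17 to 88.6). The members and lists were chosen with earlier results of these data known. The text names all H2 rows, up to 4 called genes of each list with the smallest p, set partners and regulators, and the 3 genes most like H2-K1 and most like the mean of the members; Brd2 and Gm11131 were chosen for their overlap with members, and Rfx5, Nfkb1, Hspa5 and the named marker genes after their values were seen. Some genes that these rules select are not reported here.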

Additional observations from a re-analysis of the deposited data

How the results depend on the processing

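No member changed direction under any of the 14 alternatives, of which counting all annotated genes as tests alters only the adjusted p. Log2 fold changes under them ran from 0.03 to 1.47. Of 140 such values, 99 kept their side of the threshold, 34 lost it and 7 gained it, and the cause was not tested. The 99 include values of uncalled members that stayed uncalled. H2-Q7 was called in 13 of the 14 alternatives, H2-T22 and H2-DMa in 11 each and H2-T-ps in 9. H2-K1 and H2-D1 were called in 7 each and H2-Q4 in 6. The count of 7 higher members was 3 with gap-centred scaling, 4 with the replicate block, 0 when all annotated genes were counted as tests (where H2-Q7 came closest, edgeR adjusted p = 0.053, and where more tests are the cause) and 1 to 8 with 1 library left out (1 without WT replicate 1 or 2, 4 without UTX TCD replicate 3). No member was lower under any of them, and the median of 0.44 stayed within 0.31 to 0.56 with 1 library left out. Higher calls over all tested genes fell from 1692 to 812 without WT replicate 1 and to 730 without WT replicate 2. They numbered 1488 without UTX TCD replicate 3, 1547 with gap-centred scaling and 1607 with the replicate block. Calls were thus lost over the whole table as well. The replicate numbers share no stated origin. Deviations of same-numbered libraries from their genotype mean correlated at 0.28, -0.28 and 0.18. With 3 libraries per genotype these values cannot decide whether the numbers pair the samples. Non-overlapping ratios numbered 2 to 5 with 1 library left out.

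All listed genes gave 1692 higher and 1111 lower calls: 730 to 1824 and 351 to 1458 with 1 library left out, 725 lower with upper-quartile scaling, 1832 lower when gap-centred, and 625 higher and 296 lower when all annotated genes were counted. Of the calls, 60.4% were higher with TMM, 70.6% with upper-quartile scaling and 45.8% when gap-centred. The class I list (1 higher, 2 lower) had 0 to 3 and 0 to 3 with 1 library left out, 2 higher with DESeq2, 1 lower with RLE, upper-quartile scaling or the block, and 0 and 0 with every annotated gene counted. The class II list (2 and 1) had 0 to 2 and 0 to 1, 0 lower with DESeq2, RLE, upper-quartile scaling or the block, 1 higher with limma-voom, and 0 and 0 with every gene counted. The regulators (10 and 3) had 3 to 11 and 2 to 3, and 3 higher with every gene counted.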
